A study of Mus musculus with 6 samples.

Results

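The probes for Rab5a, Cav2, Anxa8 and Uhrf1bp1l, 4 genes of membrane traffic, were examined in mouse sperm RNA from fathers on normal chow (NC) or high-fat diet (HFD). Their array IDs were A_51_P117604, A_51_P279552, A_51_P207591 and A_51_P274635. These are 4 of 60706 array IDs, and each was printed as 10 spots on every array, which gave 240 spots in all over 6 arrays. The genes were chosen with measured values of these arrays known, and which value chose them is not stated. Among the 36 replicated Agilent probes that carried a gene symbol and passed the signal filter, these 4 are exactly those that met the call for a higher RNA amount in HFD, so the RNA amount was treated as the value they were chosen by. The diet difference in RNA amount, and every other diet difference taken from the same arrays, is therefore given as a description with no test.

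Male C57BL/6N mice received NC or a diet with 60% fat from week 5 to week 15 of age, and sperm were then released from the epididymis and treated to lyse somatic cells. The sample labels themselves give an age of 10 weeks. Each group had 3 samples (NC 1 to NC 3 and HFD 1 to HFD 3), with 1 array per sample and different donors for each repeat of the experiment, and how many mice went into 1 sample is not given in the sources used here. Total RNA was split with an antibody against N6-methyladenosine (m6A) into bound RNA (IP, labelled with Cy5) and the RNA left in the supernatant (Sup, labelled with Cy3), and both were hybridised to the same array. The labels name no genetic change in either group. The sperm label could not be checked against its markers, because 0 of 7 sperm markers, and none of the listed Sertoli, Leydig, epididymal, leukocyte and endothelial markers, were on probes with a gene name.

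Membrane traffic carries proteins and lipids between the cell surface and internal compartments. RAB5A is a small GTPase that directs the fusion of incoming vesicles with early endosomes. UHRF1BP1L is a lipid transfer protein found on vesicles of the early endocytic route. Caveolin 2, the product of Cav2, forms with its partner caveolin the coat of caveolae, small pits of the plasma membrane. Annexin A8 binds phospholipid membranes, late endosomes among them, in the presence of calcium. Mature sperm make little new RNA, and their RNA is largely what remained from spermatogenesis or was received in the epididymis. The m6A mark lies inside mRNAs and is read by proteins that affect their stability, location and translation.

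The promoters of Rab5a and Anxa8, the pair with the closest RNA profiles among the 4 genes (root mean square difference 0.19), are shown. Genes chosen by the same call share such a profile in part by that choice. Cpt1a, which is not among the 4, was closer to Rab5a (0.10) and to Anxa8 (0.17). The Anxa8 profile is limited by faint Sup spots on NC 1 and NC 3. Each window holds the 250 bases before the annotated start of the gene, on the plus strand of RefSeq's mouse assembly GRCm38.p6, at chr17:53478984-53479233 for Rab5a and chr14:34085729-34085978 for Anxa8. Capitals mark matches, on either strand, to a cAMP response element (CRE, TGACGTCA), an E-box (CACGTG), a GC box (GGGCGG) or a TATA box (TATAAA).
Rab5a: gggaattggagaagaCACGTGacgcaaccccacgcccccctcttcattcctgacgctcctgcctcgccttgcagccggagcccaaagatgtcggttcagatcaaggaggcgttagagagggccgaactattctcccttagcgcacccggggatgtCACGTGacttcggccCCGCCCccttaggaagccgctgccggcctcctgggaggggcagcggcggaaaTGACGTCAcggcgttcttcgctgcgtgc
Anxa8: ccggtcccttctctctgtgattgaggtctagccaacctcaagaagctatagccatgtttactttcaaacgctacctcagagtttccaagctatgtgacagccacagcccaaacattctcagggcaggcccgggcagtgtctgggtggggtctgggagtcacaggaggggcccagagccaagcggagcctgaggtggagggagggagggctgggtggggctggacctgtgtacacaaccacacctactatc
The Rab5a window held 1 CRE that begins 28 bases before the start, 2 E-boxes and 1 GC box, whereas the Anxa8 window held none of the 4 motifs. The windows of Cav2 and Uhrf1bp1l held GC boxes, 1 and 2, and none of the other motifs. Over all 32851 RefSeq windows of this length, 1.55% held the CRE, 6.02% the E-box, 32.7% the GC box and 12.4% the TATA box. The 4 windows had a GC content of 54.4% (Uhrf1bp1l), 58.0% (Anxa8), 62.0% (Cav2) and 64.0% (Rab5a), above the median of 52.4% over all windows, and they held 10, 4, 10 and 23 CpG against a median of 6. No motif was shared by all 4 windows. These matches describe letters and say nothing of binding.

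The arrays differed in ways that touch these genes. Between 28.5% (NC 1) and 55.1% (HFD 3) of spots were well above background in IP, and between 35.3% (NC 1) and 50.3% (HFD 3) in Sup. The spike-in RNAs, used to scale both channels, were brighter in IP than in Sup by 0.90 on the log2 scale on NC 1 and by 0.22 to 0.46 on the other 5 arrays. The scan of HFD 3 was separate from that of the other 5 arrays. The ratio of 3′ to 5′ Gapdh signal in Sup, a measure of how complete the RNA was, was 1.11, 1.32 and 1.47 in NC, lower than the 1.74, 1.61 and 1.65 in HFD. The part of these differences in the results for the 4 genes was not tested, except where values without an array are given.

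How well each gene was measured was examined first. Rab5a and Uhrf1bp1l had all of their 10 spots well above background, in IP and in Sup, on each of the 6 arrays. The Cav2 probe had 0, 10 and 2 such spots in IP on NC 1, NC 2 and NC 3, and 10 on each HFD array, and its Sup counts were 0, 10 and 2 in NC and 10, 9 and 10 in HFD. Counting an array as measured when 50% of the spots were well above background, Cav2 was measured on 1 of 3 NC arrays and 3 of 3 HFD arrays. On NC 1 its log2 IP intensity of -5.12, relative to the spike-in mean, was no higher than that of the brightest of 15 negative control probes, -5.07. For Anxa8 the IP spots well above background were 4, 10 and 10 in NC and 10 on each HFD array, and the Sup spots were 0, 8 and 4 in NC and 9, 10 and 10 in HFD. All 4 genes passed the filter for testing, Cav2 through NC 2 and the 3 HFD arrays.

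**Figure D1:**
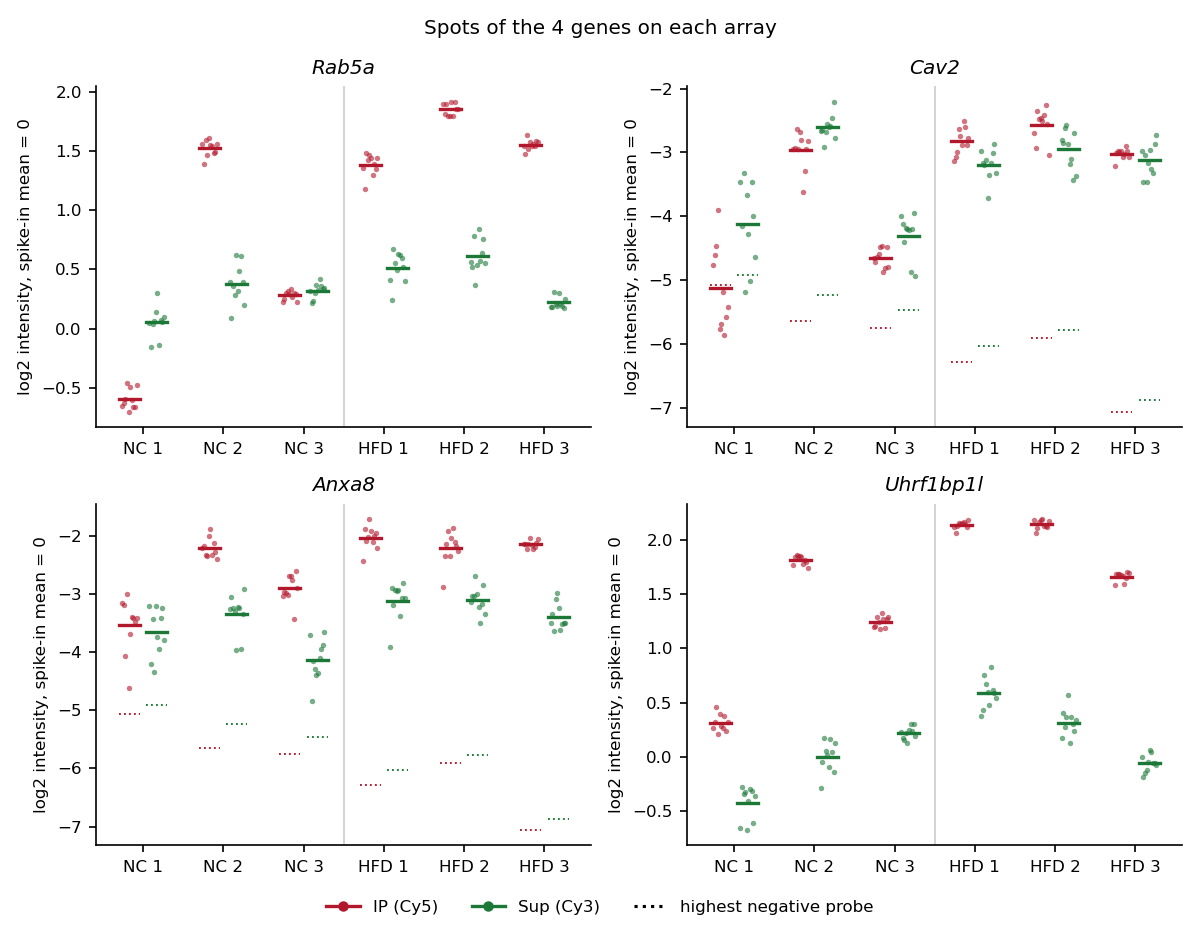
Log2 intensity of each of the 10 spots of each gene on each array, relative to the mean of the spike-in RNAs, in IP (red) and Sup (green). Bars are the means of the spots, and dotted bars in the Cav2 and Anxa8 panels mark the brightest negative control probe; the Cav2 spots of NC 1 scatter around that level in IP, and the Rab5a spots of NC 1 are the only ones of that gene with IP clearly below Sup.

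The spread between spots of 1 array was then compared with the spread between arrays. Rab5a spots had an SD of 0.04 to 0.09 in log2 IP (median 0.06 over the 6 arrays), while the SD between the 3 NC arrays was 1.07 and that between the 3 HFD arrays 0.24. Spots of Uhrf1bp1l had an SD of 0.03 to 0.08 in log2 IP (median 0.04), against 0.76 between NC arrays and 0.28 between HFD arrays. In IP, both endosomal genes thus differed between the arrays of a group by more than the spots of any 1 array did. For Cav2 the spot SD in log2 IP ran from 0.08 on HFD 3 to 0.66 on NC 1 (median 0.23), against 1.13 between NC arrays and 0.23 between HFD arrays. Anxa8 spots ran from 0.07 on HFD 3 to 0.48 on NC 1 (median 0.22), against 0.67 between NC arrays and 0.09 between HFD arrays.

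In Sup, the spot SD had a median of 0.13 for Rab5a, 0.28 for Cav2, 0.34 for Anxa8 and 0.13 for Uhrf1bp1l on the log2 scale. Between NC arrays the log2 Sup SD was 0.17, 0.93, 0.39 and 0.33 in the same order, and between HFD arrays it was 0.20, 0.12, 0.16 and 0.33. Between NC arrays Rab5a thus varied in IP far more than in Sup. The m6A level of single spots, IP/(IP+Sup), ranged from 15.9% to 70.8% within the Cav2 spots of NC 1 and from 27.3% to 71.8% within the Anxa8 spots of NC 1. The spots of Rab5a on HFD 3 ranged from 70.4% to 72.6%.

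**Figure D2:**
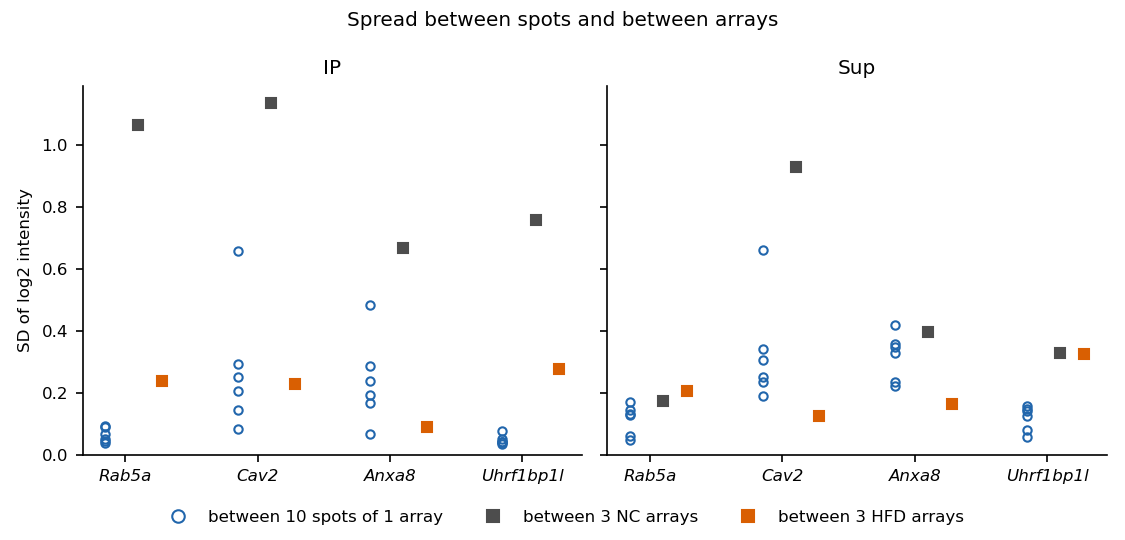
SD of log2 intensity between the 10 spots of each array (open circles, 1 per array) and between the means of the 3 NC (grey squares) and 3 HFD arrays (orange squares), in IP and Sup. For log2 IP the NC squares of the 4 genes, 0.67 to 1.13, lie above their HFD squares, 0.09 to 0.28.

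Whether each gene was brighter in IP than in Sup, relative to the spike-in RNAs, was tested with limma and Benjamini-Hochberg adjustment over all 30224 tested IDs. The test used the average of both diets rather than their difference, though on the same arrays from which the genes were chosen. IP was always labelled with Cy5 and Sup with Cy3, so fraction and dye cannot be told apart. The point of 0 is set by the scaling: with median centring Rab5a had 1.09. The test does not show which fraction held most of the RNA. The call for IP above Sup, relative to the spike-in RNAs, was met by Uhrf1bp1l and, less stably, by Rab5a, with Cav2 and Anxa8 not read because of faint spots in NC, against 22.8% of all tested IDs and 20 of the 32 other named probes. Most of the other named probes were thus called higher in IP as well. The choice of the genes required a difference in RNA amount large relative to its SE. The mean, SE and p of this test come from the same intensities as that choice. They are therefore not fully independent of it. For Rab5a the diet difference was 1.20 for bound RNA against 0.20 for unbound RNA, so the choice can bear on its ratio in each diet. How far it moved the mean was not tested. The adjusted p-values below are given as a description, and no support is drawn from them.

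Uhrf1bp1l had log2 IP over Sup of 0.74, 1.81 and 1.03 in NC and 1.55, 1.83 and 1.72 in HFD. IP was above Sup on 6 of 6 arrays, with a mean of 1.45 (SE 0.18, 2.72-fold, limma adjusted p = 9.31e-05), and the highest adjusted p over the alternatives was 0.000852. Anxa8 gave 0.11, 1.14 and 1.23 in NC and 1.08, 0.89 and 1.25 in HFD. Its mean of 0.95 is given with no test, because its Sup was below the 50% limit on NC 1 and NC 3 (0 and 4 of 10 spots), and the mean was 0.28 without background correction and 0.12 with normexp. On the 4 arrays where Anxa8 was measured in both channels, NC 2 and the 3 HFD arrays, IP was above Sup.

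Rab5a stood at -0.65, 1.15 and -0.04 in NC and at 0.87, 1.24 and 1.34 in HFD in log2 IP over Sup. IP was above Sup on 4 of 6 arrays, with a mean of 0.65 (SE 0.23, 1.57-fold, limma adjusted p = 0.0313), made up of 0.15 ± 0.91 in NC and 1.15 ± 0.25 in HFD (SD, n = 3 each). That call was lost without NC 2, where the mean fell to 0.40 (limma adjusted p = 0.0706). It was also lost without NC 3, HFD 2 or HFD 3, with means of 0.70, 0.63 and 0.61 close to the full value (limma adjusted p = 0.0513, 0.0823 and 0.0946), and with spike-in probes picked per channel (mean 0.56, limma adjusted p = 0.0524). Cav2, not measured on NC 1 and NC 3 by the rule above, was at -1.01, -0.35 and -0.34 in NC and at 0.37, 0.38 and 0.10 in HFD. Its mean of -0.14 is given with no test, because 2 of the 3 NC ratios came from spots near background, and its sign turned when each channel was centred on its median (0.30) or adjusted by loess (0.34). On the arrays where Cav2 was measured, IP was below Sup on NC 2 and above it on the 3 HFD arrays. Single spots overlapped, with m6A levels of 32.7% to 54.8% on NC 2 and 44.1% to 58.0% on HFD 3. These signs set 1 NC array against 3 HFD arrays and depend on the scaling, so they are not read as a diet difference.

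The RNA amount of each gene, log2(IP+Sup) relative to the spike-in RNAs, was next set out by diet. In the call used here (fold over 1.5 and unadjusted p under 0.05, the screening limits of the study's methods) all 4 genes were higher in HFD, as the choice of genes required, and 11.3% of all tested IDs were called higher. The median difference of the 4 genes was 0.73, against 0.25 for the 32 other named probes and 0.18 for all tested IDs. Of the 32 others, 0 were called higher and 2 lower. After Benjamini-Hochberg adjustment 1 of the 30224 tested IDs was called for RNA amount, none of these 4 genes, and 6396 had an unadjusted p under 0.05 with limma.

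Rab5a had log2 RNA amounts of 0.76, 2.06 and 1.30 in NC and 2.01, 2.36 and 2.04 in HFD. The groups overlapped, because NC 2 lay among the HFD arrays. The means were 1.38 ± 0.65 in NC and 2.14 ± 0.20 in HFD (SD, n = 3 each), a difference of 0.76 (SE 0.30, 1.70-fold). For Uhrf1bp1l the amounts were 0.99, 2.17 and 1.82 in NC and 2.56, 2.50 and 2.04 in HFD. Here too NC 2 lay within the HFD range. The means were 1.66 ± 0.61 and 2.37 ± 0.28 (SD, n = 3 each), a difference of 0.71 (SE 0.30, 1.63-fold).

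Cav2 was at -3.53, -1.77 and -3.46 in NC and at -1.99, -1.75 and -2.07 in HFD, and NC 2, the NC array on which it was measured, was above 2 of the 3 HFD arrays. The means were -2.92 ± 0.996 and -1.94 ± 0.17 (SD, n = 3 each). Their difference of 0.99 is not read as a size, because the NC 1 and NC 3 values were near background. It came to 0.10 without background correction and 0.0098 with normexp. Anxa8 was at -2.59, -1.67 and -2.39 in NC and at -1.47, -1.58 and -1.63 in HFD. It was the 1 gene of the 4 whose HFD arrays all lay above its NC arrays, as did 20.4% of all tested IDs, and the gap between NC 2 and HFD 3 was smaller than the SD between the spots of either array, 0.11 and 0.10. Its means were -2.22 ± 0.49 and -1.56 ± 0.08 (SD, n = 3 each), a difference of 0.65 (SE 0.24, 1.57-fold). Among the other named probes, the nearest below these differences were Cpt1a, a gene of fatty acid oxidation, at 0.62 (SE 0.32), which missed the p limit, and Carhsp1 at 0.57 (SE 0.21), which missed the fold limit.

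**Figure D3:**
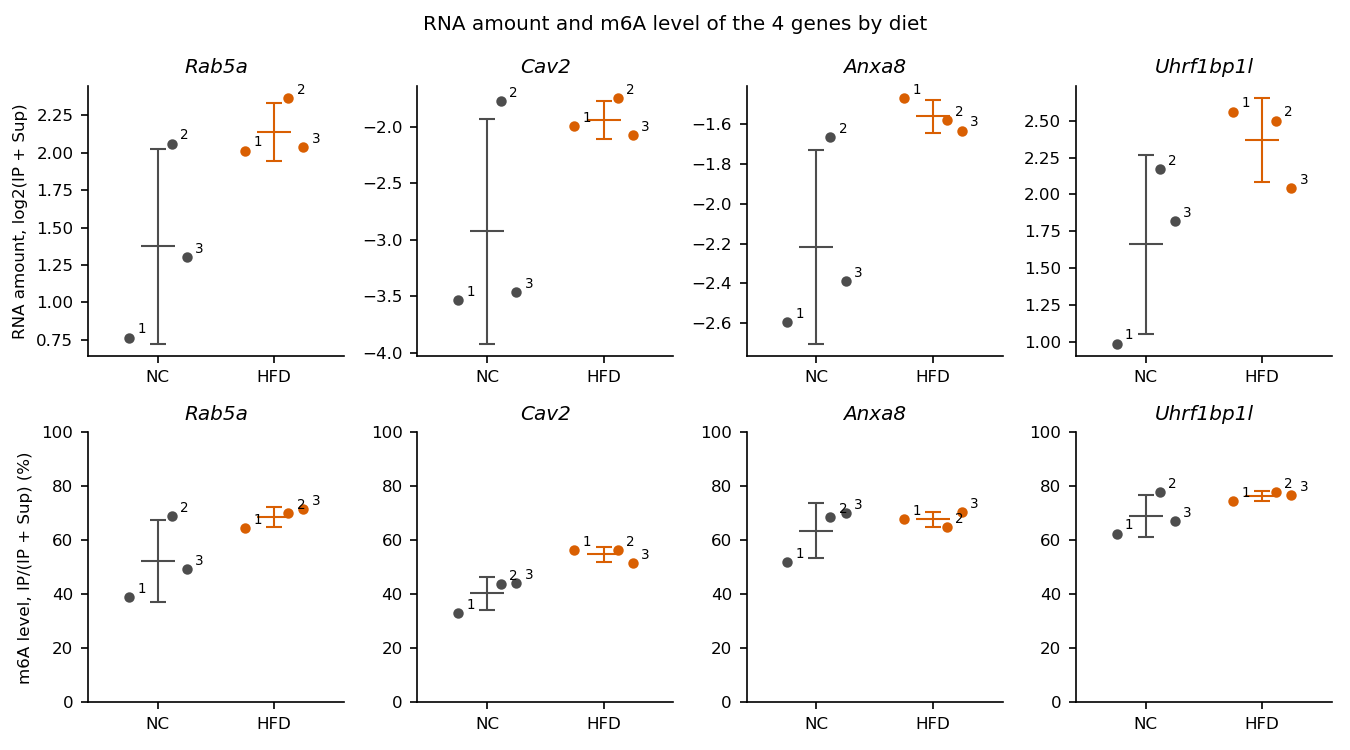
RNA amount (top, log2 relative to the spike-in RNAs, axes not starting at 0) and m6A level (bottom, percent) of each gene on the 3 NC and 3 HFD arrays. Points are arrays with their replicate number, and bars are the mean ± SD; in each RNA panel NC 2 lies near the HFD points, while the NC 1 point is the lowest.

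For each gene, NC 1 and NC 3 had the lowest RNA amounts of the 6 arrays. NC 2 differed from the HFD mean by little: HFD minus NC 2 was 0.08 for Rab5a, -0.16 for Cav2, 0.10 for Anxa8 and 0.19 for Uhrf1bp1l. NC 2 exceeded the mean of NC 1 and NC 3 by 1.03 for Rab5a and 0.77 for Uhrf1bp1l, more than their diet differences. For Anxa8 this was 0.82, with NC 1 faint, and for Cav2 no such value is given. Without NC 1 the differences of Rab5a, Anxa8 and Uhrf1bp1l were 0.46, 0.47 and 0.37, and without NC 2 they were 1.11, 0.93 and 0.96. Leaving out any other array moved them less. In the same order they were 0.73, 0.57 and 0.79 without NC 3, 0.83, 0.61 and 0.61 without HFD 1, and 0.65, 0.66 and 0.64 without HFD 2. Without HFD 3, which keeps the arrays scanned together, they were 0.81, 0.69 and 0.87. None are given for Cav2, because each of these runs kept NC 1 or NC 3, where it was not measured. The sign was positive in each processing run, for each gene. Little is read from this, since the genes were chosen by that sign and each run reused these arrays. For Cav2 the sign rests on NC 1 and NC 3. With normexp the difference was 0.0098 (SE 0.17) for Cav2 and 0.045 (SE 0.17) for Anxa8. The call that the choice of genes used was not kept throughout. It was met by 0 of the 4 without NC 1, NC 3, HFD 1 or HFD 2, by 2 without HFD 3, by 4 without NC 2, and by 0 when the methods' t-test took the place of limma on all 6 arrays.

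The scaling moved the differences as well. The median of all tested IDs was itself 0.18 higher in HFD. With each channel centred on its median, the differences were 0.62 for Rab5a, 0.43 for Anxa8 and 0.47 for Uhrf1bp1l, and 0 of the 4 genes met the call. The background correction bore on Cav2 and Anxa8: without it, or with normexp, the difference was 0.10 or 0.0098 for Cav2 and 0.15 or 0.045 for Anxa8. The sperm were measured in bulk, so a change in the number of cells that carry an RNA and a change in RNA per cell cannot be told apart.

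**Figure D4:**
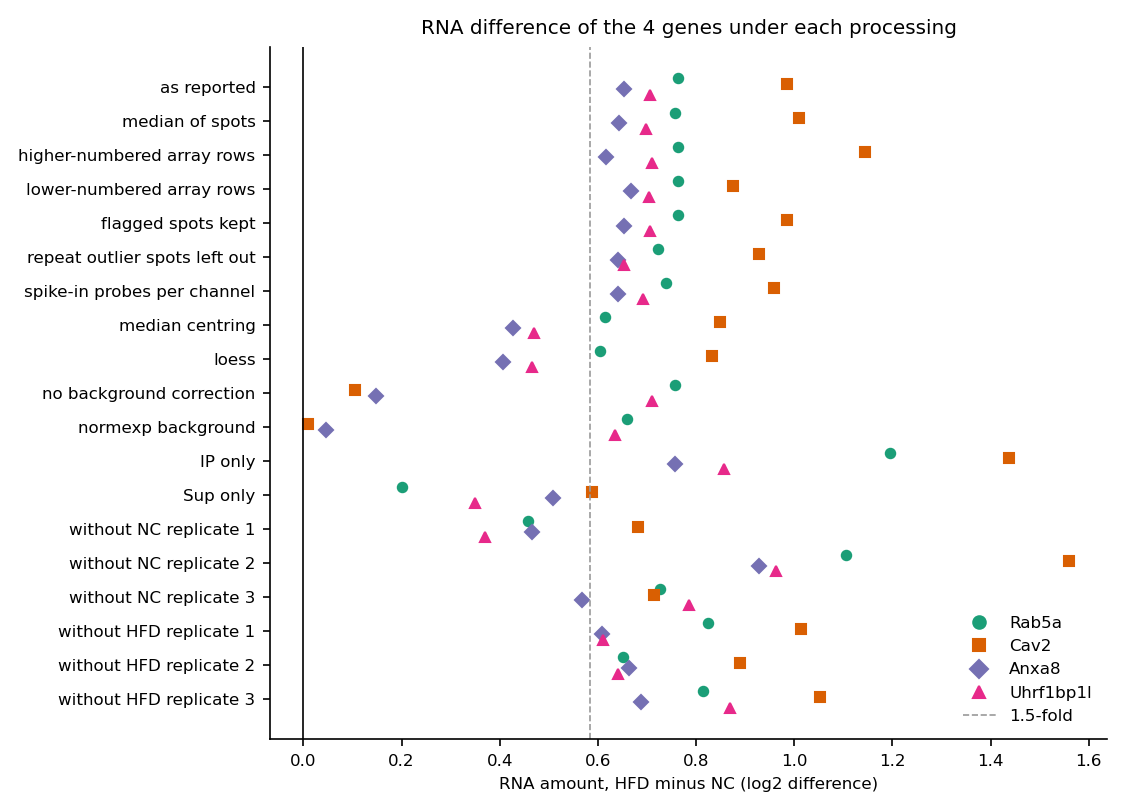
Difference in RNA amount between HFD and NC (log2) for each gene under each processing of the arrays and with each array left out. The dashed line marks a 1.5-fold difference; Cav2 and Anxa8 fall near 0 with other background corrections, and the 4 genes shift left without NC replicate 1 and right without NC replicate 2, where the NC arrays left did not measure Cav2.

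The fractions were then taken apart. In log2 IP the difference between HFD and NC was 1.20 (SE 0.49, 2.29-fold) for Rab5a, 0.76 (SE 0.34, 1.69-fold) for Anxa8 and 0.86 (SE 0.39, 1.81-fold) for Uhrf1bp1l. In log2 Sup it was 0.20 (SE 0.22), 0.51 (SE 0.25) and 0.35 (SE 0.26) in the same order. The medians over all tested IDs were 0.34 in IP and 0.06 in Sup. No such difference is given for Cav2, which was not measured on NC 1 and NC 3; the difference of its HFD mean from NC 2 came to 0.16 for IP and -0.48 for Sup on that scale. The Anxa8 differences are limited too, by 4 of 10 IP spots and 0 of 10 Sup spots well above background on NC 1 and 4 of 10 Sup spots on NC 3. For Rab5a, log2 Sup was 0.05, 0.38 and 0.32 in NC and 0.52, 0.61 and 0.22 in HFD, while log2 IP was -0.59, 1.53 and 0.28 against 1.39, 1.86 and 1.56. Its bound RNA was low on NC 1 and NC 3, while its unbound RNA differed between the groups by less than the SE of the difference.

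For the m6A level, 0 of the 4 genes met the same call, and 3.02% of all tested IDs were called higher in HFD. The count was 1 of the 4 without NC 2 and 1 with the ratio IP/Sup. Nothing is read from these counts, since the genes were chosen on the same contrast. With limma, 1743 tested IDs had an unadjusted p under 0.05 for the m6A level and 0 passed adjustment. Rab5a had levels of 39.0%, 68.9% and 49.3% in NC and 64.6%, 70.3% and 71.6% in HFD. NC 2 lay within the HFD range again, and the means were 52.4% ± 15.2 and 68.8% ± 3.70 (SD, n = 3 each), a log2 difference of 0.43 (SE 0.22). That difference was 0.24 without NC 1, 0.65 without NC 2 and 0.24 with median centring. For Uhrf1bp1l the levels were 62.5%, 77.8% and 67.1% in NC and 74.5%, 78.0% and 76.7% in HFD. The groups overlapped, with means of 69.1% ± 7.84 and 76.4% ± 1.77 (SD, n = 3 each) and a log2 difference of 0.15 (SE 0.14), which was 0.08 without NC 1, 0.24 without NC 2 and 0.05 with median centring.

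Cav2 had m6A levels of 33.2%, 43.9% and 44.1% in NC and 56.3%, 56.5% and 51.7% in HFD. As computed, its HFD arrays all lay above its NC arrays, which was so for 1 of the 4 genes and for 10.6% of all tested IDs. NC 2, the NC array on which Cav2 was measured, had 43.9%, below each HFD array. The group means were 40.4% ± 6.23 and 54.9% ± 2.72 (SD, n = 3 each). Their log2 difference of 0.45 is not read as a size, nor the order of the arrays as a separation. The NC 1 and NC 3 levels came from spots that were mostly not well above background. The difference was 0.25 with median centring, 0.19 with loess, 0.26 without background correction and 0.14 with normexp. Anxa8 had 51.9%, 68.8% and 70.1% in NC and 67.9%, 65.0% and 70.4% in HFD. NC 1 alone stood apart, and the log2 difference of 0.10 (SE 0.17) became -0.04 without it. On that array the median m6A level of all tested IDs was 33.5%, against 42.6% to 46.0% on the other 5.

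The named probes whose RNA amount over the 6 arrays was most like that of each gene were ranked by the root mean square difference of the log2 amounts, each centred on its own mean, among 35 other named probes. Rab5a was closest to Cpt1a (0.10) and then Anxa8 (0.19), against a median of 0.46 over the 35. Cav2 was closest to Rab5a (0.29) and then Cpt1a (0.32), with a median of 0.67. Values with Cav2 are not read as likeness: on NC 1 and NC 3, 0 and 2 of its 10 spots were well above background. Values with Anxa8 are limited by its Sup, with 0 of 10 such spots on NC 1 and 4 of 10 on NC 3. For Anxa8 the closest were Cpt1a (0.17) and Rab5a (0.19), with a median of 0.35, and for Uhrf1bp1l they were Rab5a (0.205) and Cpt1a (0.208), with a median of 0.43. Pairs within the 4 genes ranged from 0.19 (Rab5a and Anxa8) to 0.43 (Cav2 and Uhrf1bp1l). Genes called on the same contrast share this pattern in part by their choice. Of a list of 95 membrane traffic genes, the 4 described here were the members on named probes, and the rest of the list was not analysed here.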

How the data were processed

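The authors deposited one Agilent Feature Extraction 11.0.1.1 scanner output per two-colour array. The deposited processed intensities were made by the authors with that software, which subtracts background and equalises the dyes. Labels gave the groups; the source name of NC 3 names another replicate, so its title was used. Here, processed intensities were floored at 1, converted to log2 and reduced, per channel, by the mean of 13 of 102 spike-in probes well above background on all 6 arrays. Spots flagged non-uniform were set to missing (0 of 240 for the 4 genes), and spots of a probe were averaged. IDs were tested where 50% of spots were well above background in 1 channel on at least 3 arrays. HFD was compared with NC, and IP with Sup, by limma 3.58.1 in R 4.3.3 (lmFit, eBayes; two-sided; checked on simulated arrays). The p-values measure the spread between these samples. The named genes were the 4, plus the 2 named probes closest to each in RNA amount; Carhsp1 was named after its value was seen. Members, lists and tests were chosen with earlier results of these data known. Symbols came from RefSeq by accession (45 of 50 probes); probe sequences were not used here.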

Additional observations from a re-analysis of the deposited data

How the results depend on the processing

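The differences in RNA amount kept their sign under each alternative run, which the choice of the genes by that sign made likely. The call met by the 4 genes was met by 0 with median centring, loess, no filter, Sup alone and the methods' t-test. It was also met by 0 without NC 1, NC 3, HFD 1 or HFD 2. It was met by 2 with normexp, no background correction, spike-in probes per channel, IP alone and without HFD 3, and by 3 with the spots in the lower-numbered rows of each array. It was met by 4 without NC 2, with a replicate block, the median of spots, non-uniform spots kept, the higher-numbered rows and repeat outlier spots left out. The differences in m6A level kept their sign except for Anxa8, which was negative in 3 of 20 runs, the reported one counted. Median centring gave Cav2 an m6A difference of 0.25 and a log2 IP over Sup of 0.30, and loess gave 0.19 and 0.34. Without background correction Cav2 had 0.26 in m6A level, 0.10 in RNA amount and -0.28 in IP over Sup, and Anxa8 had 0.15 in RNA amount and 0.28 in IP over Sup. With normexp Cav2 had 0.14, 0.0098 and -0.18, and Anxa8 had 0.045 in RNA amount and 0.12 in IP over Sup. With spike-in probes picked per channel Rab5a had 0.56 in IP over Sup (limma adjusted p = 0.0524), and leaving out 1 array gave 0.40 to 0.85. The ratio IP/Sup in place of IP/(IP+Sup) gave m6A differences of 0.99 for Rab5a, 0.85 for Cav2 and 0.51 for Uhrf1bp1l, larger by construction, and Sup alone gave Rab5a an RNA difference of 0.20. The cause of the other shifts was not tested. The replicate numbers were not taken as pairs (r of same-numbered deviations -0.04 to 0.02 in m6A level and -0.22 to 0.11 in RNA amount, with 2 and 1 of 6 arrays closest to their own number). A replicate block left the differences as they were (0.76 for Rab5a in RNA amount), with 3513 higher calls over all IDs. The higher calls over all IDs ran from 988 (normexp) to 4969 (without NC 2) in RNA amount and from 4 (normexp) to 2516 (without NC 2) in m6A level, and those of IP over Sup from 4099 (strict filter) to 11199 (median centring). Lower calls ran from 75 (normexp) to 1893 (no filter), from 6 to 358, and from 7469 (strict filter) to 30955 (no filter). Leaving out spots marked as repeat outliers was chosen after seeing the data. The methods' t-test called 1786 IDs higher and 306 lower in RNA amount and 394 and 55 in m6A level, and 2 and 0 after Benjamini-Hochberg adjustment. Median centring turned the split in RNA amount from 3406 higher and 555 lower to 1633 and 1185, and that in m6A level from 913 and 116 to 233 and 213. The strict filter gave no value for Cav2 and Anxa8, and the call for RNA amount was met by 2 of the 2 genes left, Rab5a and Uhrf1bp1l. Signal over background limits Cav2 and Anxa8 on NC 1 and NC 3.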
